A study of Mus musculus with 16 samples.

Results

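The MHC class II presentation genes were followed in the cochlea of DBA/2J mice, a strain used as a model of progressive hearing loss. The members were 10 genes: the classical chains H2-Aa, H2-Ab1 and H2-Eb1, the peptide-loading chains H2-DMa, H2-DMb1 and H2-DMb2, the chains of the loading inhibitor H2-Oa and H2-Ob, the invariant chain Cd74, and the transactivator Ciita. A probe was taken for a gene when the array annotation gave that gene as its only symbol, which left 19 of the 45101 probes and 9 of the 18194 genes on the array. H2-DMb1 had no probe of its own, because its 2 probes are annotated to H2-DMb2 as well. RNA of the whole left cochlea of male mice was measured on Affymetrix mouse expression arrays, each array holding 1 cochlea of 1 mouse. The M+V group (n = 6) was 12 weeks old and had received L-methionine (500 mg/kg), a methyl donor, with valproic acid (300 mg/kg), an inhibitor of histone deacetylases, in sodium bicarbonate by daily subcutaneous injection for 8 weeks. The control group (n = 5) was 12 weeks old and had received control vehicle for 8 weeks, and the 4 weeks group (n = 5) was untreated. The comparison of the M+V and control groups asks what the reagents changed, and the comparison of the control and 4 weeks groups asks what differed after 8 weeks of age and vehicle, which cannot be told apart in this design.

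MHC class II molecules are pairs of an alpha and a beta chain that present peptides from endosomes to CD4 T cells. B cells, dendritic cells and macrophages make them constitutively or on activation, and the invariant chain escorts them to the endosome, where H2-DM exchanges its remnant for antigenic peptide and H2-O, best known from B cells, holds H2-DM back. Transcription of these genes runs through a shared promoter module, the X box and the Y box, where the RFX and NF-Y factors recruit the transactivator CIITA. In the inner ear, class II protein is known from resident macrophages, and the bone around the cochlea holds marrow.

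The shared promoter module can be read in promoter sequences of some member genes. RefSeq promoter sequences of the reference strain C57BL/6J (GRCm38.p6) were at hand for 7 of the 10 genes, and those of H2-Ab1, Cd74 and Ciita were not used here. DBA/2J carries a different MHC haplotype from this reference, so its own bases can differ. Each of the 32851 reference promoters of 300 bases was searched, on the strand of its gene, for a Y box core (TGATTGG) and an X box core (GCAAC), and the letters and the spacing were settled with the member sequences in view. The Y core stood in the promoters of 6 of the 7 member genes, against 7.82% of all promoters, and an X core followed 15 to 40 bases further on by a Y core stood in those of 4, against 0.237% of all promoters. The 4 genes with both cores were a classical alpha chain, a classical beta chain and both chains of H2-O, and their 70 base windows are shown 5′ to 3′ on the strand of the gene, with the cores in capitals.
H2-Aa, chr17:34287849-34287918, minus strand: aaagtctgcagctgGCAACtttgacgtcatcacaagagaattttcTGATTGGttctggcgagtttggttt
H2-Eb1, chr17:34305761-34305830, plus strand: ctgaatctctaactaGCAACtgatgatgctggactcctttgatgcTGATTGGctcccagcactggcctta
H2-Oa, chr17:34092289-34092358, plus strand: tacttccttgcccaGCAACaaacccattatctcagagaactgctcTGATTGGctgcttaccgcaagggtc
H2-Ob, chr17:34238801-34238870, plus strand: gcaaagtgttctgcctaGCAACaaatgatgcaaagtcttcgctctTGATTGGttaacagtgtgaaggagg
From X core start to Y core start these windows measured 31 bases in H2-Aa, 30 in H2-Eb1, 31 in H2-Oa and 28 in H2-Ob, and the Y core began 50, 61, 45 and 59 bases before the annotated start of the gene. The H2-DMb1 and H2-DMb2 windows held the Y core alone and were identical at 60 of their 70 bases. The H2-DMb2 window lay within the annotated span of that gene (34143229 to 34151553), not in front of it.
H2-DMb1, chr17:34153083-34153152, plus strand: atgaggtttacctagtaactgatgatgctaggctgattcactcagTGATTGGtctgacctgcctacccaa
H2-DMb2, chr17:34145112-34145181, plus strand: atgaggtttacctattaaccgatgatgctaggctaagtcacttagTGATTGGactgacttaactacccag
The Y core was not found in the promoters of H2-DMa. Counted by itself, the X core stood in the promoters of 5 of the 7 member genes, against 35.2% of all promoters. Outside the 4 genes above it was not followed by a Y core at that spacing. A match of letters is a description of the sequence, and the absence of these letters says only that they are not in the window searched.

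Values are log2 signals, so that a difference of 1 is a 2-fold ratio, and all arrays share one median after quantile normalization. The filter on dim probes kept a probe if 1 or more groups had it at or above the array median throughout. Of the members, 14 probes of 8 genes were tested. H2-Oa passed this filter only through the control group, the other 7 genes passed in each group, and no Ciita probe passed. Each gene is described by its brightest tested probe, or for Ciita by its brightest probe. Precision is limited by how many arrays there are.

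The arrays differed in more than their group labels, and some of these differences ran with the groups. The hybridisation control bioB, a bacterial transcript added during the assay, was at a high level (9.02 to 9.74) on 8 arrays, namely all 5 of the 4 weeks group, control replicate 1 and M+V replicates 1 and 2, and at a low level (5.98 to 6.36) on the other 8. M+V replicate 1 stood apart from every other array: the summed signal of 9 erythroid genes was 1021 there, the lowest among the M+V arrays, whose median was 34120, against 27660 to 46460 in control arrays and 27290 to 45950 in 4 weeks arrays. The cochlear genes Coch, which encodes cochlin, and Otos, which encodes otospiralin, were bright on all arrays, at 14.84 to 15.42 and 13.82 to 14.88. Of the 12 cochlear markers, Slc26a5 and Tecta did not pass the filter. The mean deviation of the 12 from their mean over all arrays was -0.52 in M+V replicate 1, the lowest of the M+V arrays, which reached 0.52. It was -0.28 to 0.12 in control arrays and -0.20 to 0.57 in 4 weeks arrays. Myeloid marrow RNA was present as well, with medians of 14.0 in M+V, 13.8 in control and 13.2 in 4 weeks cochleae for Mpo, the peroxidase of neutrophil granules.

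The classical chains and Cd74 had their lowest group means in 4 weeks cochleae, their highest in control cochleae, and intermediate ones in M+V cochleae. Relative to control, the 9 measured members had a median log2 fold change of -0.56 in M+V cochleae. The median over the 11457 tested genes was 0.02. All 9 members lay below 0, but H2-DMa (-0.04 ± 0.14, SE) and Ciita (-0.01 ± 0.17) by less than their SE. With a single array left out, each of these could cross 0. Against 4 weeks, control cochleae had a median of 0.71 over the members, beside 0.01 over all tested genes. All 9 members lay above 0, with Ciita at 0.00 ± 0.17. M+V against 4 weeks gave a median of 0.31 over the members, beside 0.03, with 7 above and 2 below 0. The members were chosen by function and selected on their log2 signals in these same 3 groups, which were already known, and 4 of them (H2-Aa, H2-Ab1, H2-Oa and H2-Ob) stand in a list the study drew from the same arrays. The counts above and below 0, and the counts that follow, therefore describe the choice and support nothing.

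**Figure D1:**
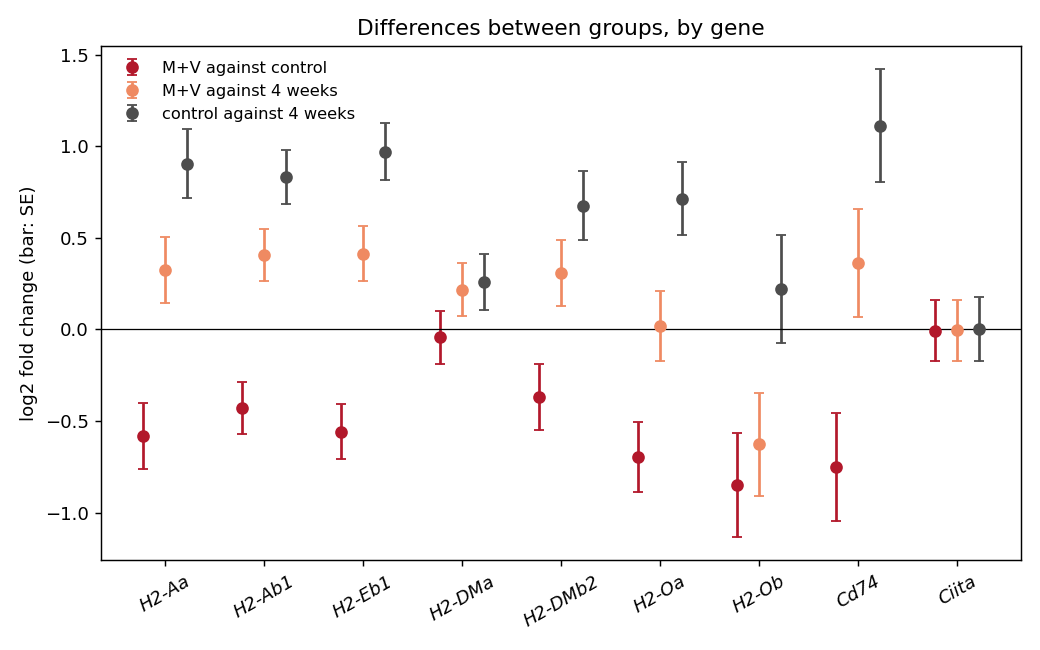
Log2 fold change of each member's representative probe, with its standard error, in the comparisons of M+V with control, of M+V with 4 weeks and of control with 4 weeks. The classical chains and Cd74 lie below 0 against control and above 0 against 4 weeks, H2-Ob lies below 0 in both M+V comparisons, and Ciita lies at 0 in each.

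At an adjusted p under 0.05 (limma, Benjamini-Hochberg over 21391 probes), 0 of the 8 tested members were called between M+V and control, where 0.0% of all tested genes were called. In that comparison 2096 probes had an unadjusted p under 0.05 by limma and 1565 by the methods' t-test, which called 0 after adjustment. With the study's cutoffs (more than 1.5-fold, unadjusted p below 0.05), 3 members (H2-Oa, H2-Ob and Cd74) were lower in M+V cochleae, against 0.986% of tested genes. In control against 4 weeks, 3 members (H2-Aa, H2-Ab1 and H2-Eb1) were called higher after adjustment, against 0.402%, and 6 members were higher by the study's cutoffs, against 1.12%. Those 6 also had every control array above every 4 weeks array, a pattern held by 2.22% of tested genes. Between M+V and 4 weeks, 0 members were called after adjustment, against 4.93% in either direction, and 1 (H2-Ob) was lower by the study's cutoffs, against 2.02%. No member was higher in every M+V array than in every 4 weeks array, against 2.35% of tested genes.

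The classical chains H2-Aa, H2-Ab1 and H2-Eb1, which build the I-A and I-E molecules at the cell surface, were higher in control than in 4 weeks cochleae without overlap. H2-Aa, the I-A alpha chain, ranged over log2 signals of 11.13 to 12.40 around a median of 12.00 in M+V cochleae, against 12.41, 12.39, 12.47, 12.84 and 12.46 in control cochleae. In 4 weeks cochleae H2-Aa was at 11.63, 11.61, 11.68, 11.79 and 11.35. Only M+V replicate 4 reached into the control range, and M+V replicate 1 fell below the lowest 4 weeks array. The log2 fold change of H2-Aa was -0.58 ± 0.18 (SE) for M+V against control, 0.32 ± 0.18 for M+V against 4 weeks and 0.91 ± 0.19 for control against 4 weeks, a 1.87-fold ratio. With the bioB level as a term these last 2 values were 0.01 and 0.53, without M+V replicate 1 the value for M+V against 4 weeks was 0.48, and on arrays of the high bioB level it was -0.13, of opposite sign. All 4 probes of H2-Aa lay on the same side of 0 in each comparison, with log2 fold changes of -0.58, -0.57, -0.67 and -0.72 for M+V against control and of 0.91 to 1.2 for control against 4 weeks.

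H2-Eb1, the I-E beta chain, was between 9.74 and 10.63 in M+V cochleae with a median of 10.21, against 10.62, 10.70, 10.89, 11.15 and 10.58 in control cochleae. In 4 weeks cochleae H2-Eb1 was at 9.76, 9.91, 10.04, 9.84 and 9.54. As for H2-Aa, 5 of 6 M+V arrays were below every control array, and replicate 4 was the exception. For H2-Eb1 the log2 fold change was -0.56 ± 0.15 (SE) for M+V against control, 0.41 ± 0.15 for M+V against 4 weeks, and 0.97 ± 0.16 or 1.96-fold for control against 4 weeks. The value for M+V against 4 weeks was 0.17 with the bioB level as a term.

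H2-Ab1, the I-A beta chain, had a narrower spread. Its M+V arrays lay between 9.64 and 10.24 with a median of 9.84, against 10.12, 10.59, 10.09, 10.64 and 10.24 in control cochleae and 9.55, 9.62, 9.44, 9.69 and 9.22 in 4 weeks cochleae. The M+V and control ranges overlapped in replicates 4 and 5 of M+V. The log2 fold change of H2-Ab1 was -0.43 ± 0.14 (SE) for M+V against control, 0.41 ± 0.14 for M+V against 4 weeks, and 0.83 ± 0.15 or 1.78-fold for control against 4 weeks. Against 4 weeks, M+V was at 0.22 with the bioB level as a term. The other 2 probes of H2-Ab1 gave -0.73 and -0.49 for M+V against control and 0.86 and 0.83 for control against 4 weeks.

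**Figure D2:**
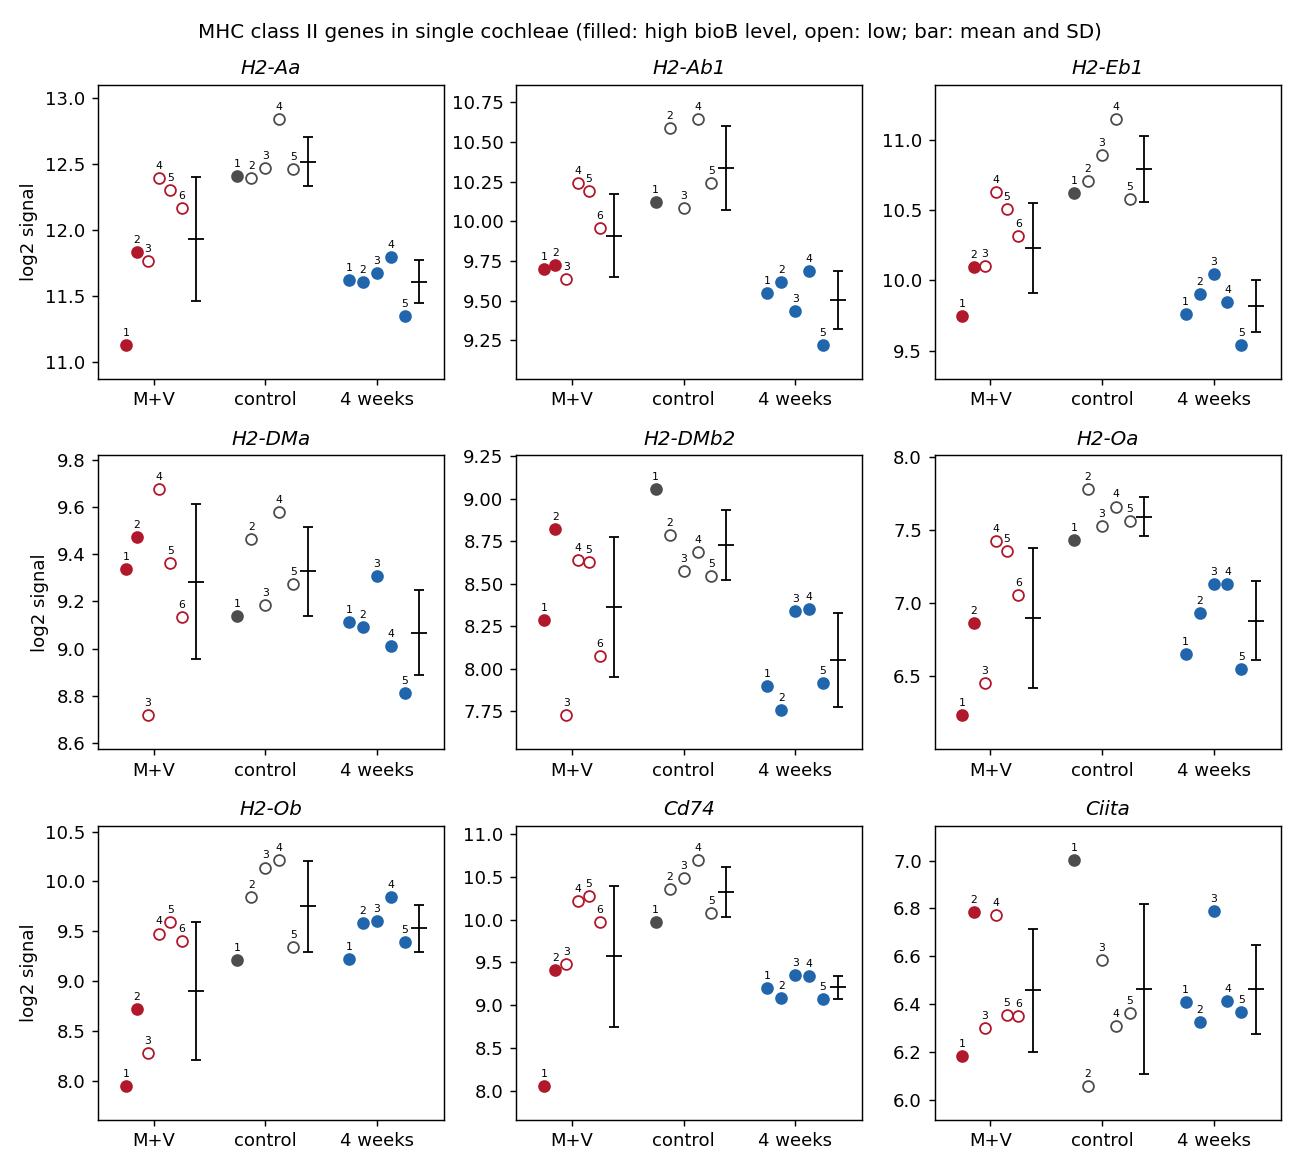
Log2 signal of the representative probe of each of 9 members in every cochlea (points, numbered by replicate), for the M+V, control and 4 weeks groups, with the mean and SD of each group as a bar. Filled points are arrays of the high bioB level and open points are arrays of the low level. Control points lie above all 4 weeks points in 6 of the panels, and M+V points spread widest for Cd74, H2-Ob, H2-Oa and H2-Aa.

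Cd74, the invariant chain that fills the peptide groove until loading, had the largest log2 fold change of the representative probes between control and 4 weeks and the largest spread under M+V. Its log2 signal was between 8.06 (replicate 1) and 10.27 in M+V cochleae with a median of 9.73, against 9.97, 10.36, 10.49, 10.70 and 10.08 in control cochleae and 9.20, 9.08, 9.35, 9.34 and 9.08 in 4 weeks cochleae. The other 5 M+V arrays were above every 4 weeks array, 2 of them within the control range, and control and 4 weeks arrays did not overlap. The SD of Cd74 was 0.82 in the M+V group, 0.30 in the control group and 0.13 in the 4 weeks group. Its log2 fold change was -0.75 ± 0.30 (SE) for M+V against control, 0.36 ± 0.30 for M+V against 4 weeks, and 1.11 ± 0.31 or 2.16-fold for control against 4 weeks. Without M+V replicate 1 the value was -0.45 for M+V against control and 0.66 for M+V against 4 weeks. With the bioB level as a term Cd74 was at -0.27 for M+V against 4 weeks, of opposite sign, and at 0.36 for control against 4 weeks.

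H2-Oa and H2-Ob, the alpha and beta chains of the inhibitor of H2-DM, were with Cd74 the representative probes lowest in M+V relative to control. H2-Oa was between 6.23 and 7.42 in M+V cochleae with a median of 6.96, against 7.43, 7.78, 7.53, 7.66 and 7.56 in control cochleae and 6.65, 6.93, 7.13, 7.13 and 6.55 in 4 weeks cochleae. All 6 M+V arrays and all 5 of the 4 weeks arrays were below the lowest control array, and H2-Oa was the 1 tested member without overlap between M+V and control, against 0.288% of tested genes that were lower in this way. The margin was small, with the highest M+V array at 7.42 and the lowest control array at 7.43. The log2 fold change of H2-Oa was -0.69 ± 0.19 (SE) for M+V against control, 0.02 ± 0.19 for M+V against 4 weeks and 0.71 ± 0.20 for control against 4 weeks. With the bioB level as a term the last 2 were -0.25 and 0.39. As H2-Oa passed the filter through its control arrays, a difference from that group was built into its selection.

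H2-Ob lay between 7.95 and 9.59 in M+V cochleae with a median of 9.06, against 9.21, 9.85, 10.14, 10.22 and 9.34 in control cochleae and 9.22, 9.58, 9.61, 9.84 and 9.39 in 4 weeks cochleae. Control and 4 weeks arrays thus covered much the same levels, and M+V replicates 1, 2 and 3 were below every array of both groups. The log2 fold change of H2-Ob was -0.85 ± 0.28 (SE) for M+V against control, -0.63 ± 0.28 for M+V against 4 weeks and 0.22 ± 0.29 for control against 4 weeks. With the bioB level as a term in the model, the value for control against 4 weeks was -0.41, of opposite sign, and that for M+V against 4 weeks was -1.15.

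H2-DM is the exchange factor that removes the invariant chain remnant. Between M+V and control, its alpha chain H2-DMa had a smaller fold change than the classical chains. H2-DMa was between 8.72 and 9.67 in M+V cochleae with a median of 9.35, against 9.14, 9.46, 9.18, 9.58 and 9.27 in control cochleae and 9.11, 9.09, 9.31, 9.01 and 8.81 in 4 weeks cochleae. The M+V range enclosed the control range, and the log2 fold change of H2-DMa was -0.04 ± 0.14 (SE) for M+V against control and 0.26 ± 0.15 for control against 4 weeks. A second, dim probe of H2-DMa that was not tested gave 1.12 ± 0.66 for M+V against control, the 1 probe of the 19 above 0 in that comparison.

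H2-DMb2, a beta chain of H2-DM, was between 7.73 and 8.82 in M+V cochleae with a median of 8.46, against 9.05, 8.79, 8.57, 8.69 and 8.54 in control cochleae and 7.90, 7.76, 8.34, 8.35 and 7.91 in 4 weeks cochleae. Its control arrays did not overlap the 4 weeks arrays, while the M+V arrays reached into both. The log2 fold change of H2-DMb2 was -0.37 ± 0.18 (SE) for M+V against control and 0.68 ± 0.19 for control against 4 weeks. With the bioB level as a term, M+V against control gave -0.41 for H2-DMb2 and -0.39 for the classical chain H2-Ab1. The 2 other probes of H2-DMb2 gave -0.36 and -0.05 for M+V against control and 0.55 and 0.33 for control against 4 weeks. The 2 probes shared by H2-DMb1 and H2-DMb2, which cannot be assigned to either gene, gave -0.15 and -0.18 for M+V against control and 0.36 and 0.71 for control against 4 weeks.

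Ciita, the transactivator on which transcription of class II genes largely depends, was dim. Its brightest probe reached the array median on 1 of 16 arrays, with values between 6.18 and 6.79 and a median of 6.35 in M+V cochleae, against 7.00, 6.06, 6.59, 6.31 and 6.36 in control cochleae and 6.41, 6.33, 6.79, 6.42 and 6.37 in 4 weeks cochleae. The groups overlapped throughout, and the log2 fold change was -0.01 ± 0.17 (SE) for M+V against control and 0.00 ± 0.17 for control against 4 weeks. Another Ciita probe, dimmer still, ran the other members' way. It was between 5.96 and 6.56 in M+V cochleae with a median of 6.19, against 6.67, 6.38, 6.58, 6.92 and 6.49 in control cochleae and 6.01, 5.75, 5.72, 5.89 and 5.84 in 4 weeks cochleae. On that probe the log2 fold change was -0.40 ± 0.13 (SE) for M+V against control and 0.76 ± 0.13 for control against 4 weeks, and every control array was above every 4 weeks array. The third and dimmest Ciita probe gave -0.68 ± 0.62 (SE) for M+V against control and 1.22 ± 0.65 for control against 4 weeks, with overlapping groups. The brightest Ciita probe thus differed from the other two, and none of the 3 passed the filter on dim probes.

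These results were set beside the bioB level, because it runs with the groups. On the 8 low level arrays alone, 4 of M+V and 4 of control, the median log2 fold change of the members was -0.38, and on the high level arrays, 2 of M+V and 1 of control, it was -0.70. On high level arrays the median for M+V against 4 weeks was 0.02, with 2 M+V arrays and all 5 of the 4 weeks group. For control against 4 weeks only control replicate 1 shared the high level with the 4 weeks arrays, and the median on high level arrays was 0.62. With the bioB level as a term, the median was -0.51 for M+V against control, 0.17 for M+V against 4 weeks and 0.39 for control against 4 weeks, and 0 members were called in the last comparison. H2-Ob was then called in M+V against 4 weeks, where 1427 probes over the whole array were called, against 1129 without the term. Without M+V replicate 1 the medians were -0.42, 0.32 and 0.71 in the same order. The members called numbered 0, 3 (H2-Aa, H2-Eb1 and Cd74) and 5 (with H2-Oa and Cd74 added to the classical chains). Probes called over the whole array then numbered 0, 1547 and 550, against 0, 1129 and 295 with that array. The added member calls therefore came with more calls over the whole array. Without M+V replicate 1, 1 member remained free of overlap between M+V and control, namely H2-Oa, which passed the filter only through the control group. In M+V against 4 weeks 2 were higher without overlap. The share of tested genes without M+V replicate 1 was not counted for these 2 comparisons. With that array included it was 0.288% for lower in M+V than control and 2.35% for higher in M+V than 4 weeks. Leaving out an M+V array can only raise these shares, so whether the 2 member counts exceed them cannot be said. Control against 4 weeks, which that array does not enter, had 6, against 2.22% of tested genes.

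Within groups the members did not vary independently. Averaged over the 8 tested members, the deviation from the mean of all arrays was -0.69, -0.13 and -0.48 in M+V replicates 1, 2 and 3, and 0.34, 0.28 and 0.01 in M+V replicates 4, 5 and 6. It was 0.25 to 0.69 in control arrays and -0.52 to -0.12 in 4 weeks arrays. After group means were removed, Pearson's r over the 16 arrays was 0.94 between H2-Aa and Cd74, 0.90 between H2-Aa and H2-Eb1, 0.88 between H2-Ob and Cd74 and 0.86 between H2-Oa and H2-Ob. Without M+V replicate 1 these were 0.87, 0.88, 0.91 and 0.79. Between H2-DMa and H2-DMb2 r was 0.63, and with Cd74 it was 0.23 for H2-DMa and 0.17 for H2-DMb2. Without M+V replicate 1 these were 0.64, 0.53 and 0.20. Ciita ran from -0.23 with H2-Ab1 to 0.58 with H2-DMb2. The points share the array and its normalization, so these correlations are descriptions, given without a test.

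**Figure D3:**
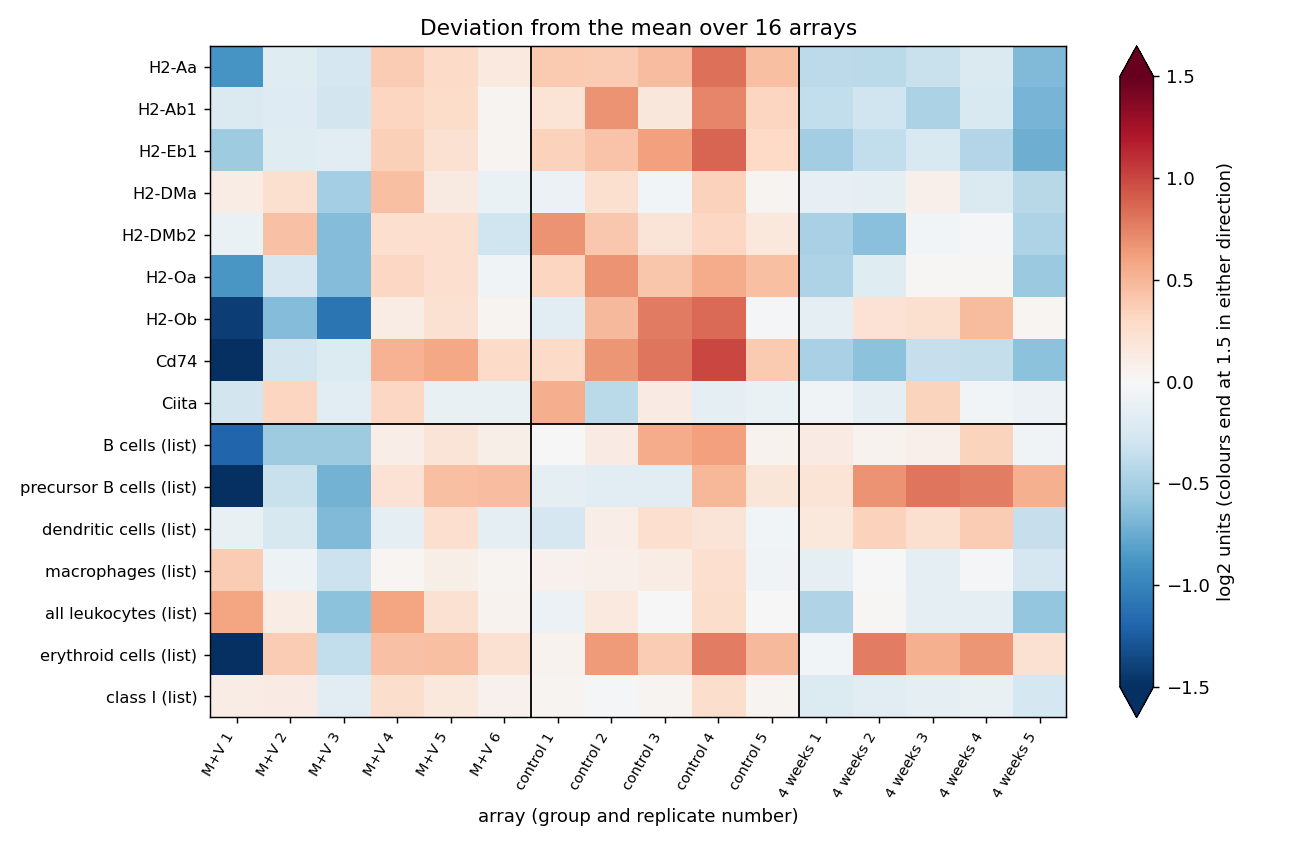
Deviation of each member (upper rows) and of the mean of 7 gene lists (lower rows) from their own mean over 16 arrays, in log2 units, with arrays in columns grouped as M+V, control and 4 weeks. The classical chains and Cd74 are high in control arrays and low in 4 weeks arrays, whereas H2-Ob follows the B cell list, and M+V replicate 1 is low for H2-Ob, Cd74, B cell, precursor B cell and erythroid genes.

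Markers of the cells that carry class II molecules moved with some members and not with others. In bulk RNA, fewer cells of a type and less RNA per cell cannot be told apart. Of 13 B cell markers 9 were tested, and in M+V against control all 9 lay below 0 with a median log2 fold change of -0.74, or -0.52 without M+V replicate 1. None of these 9 was called after adjustment, 8 had an unadjusted p under 0.05 by limma, and 5 passed the study's cutoffs. The summed signal of 12 B cell markers was 3147 to 8672 in M+V cochleae, 7036 to 11380 in control cochleae and 8010 to 10580 in 4 weeks cochleae, with no marker at 0. The defining markers Cd79a, Pax5 and Cr2 did not pass the filter. In control against 4 weeks the B cell list had a median of -0.07, so it did not show the difference of the classical chains, and 1 of its genes, Bank1, was called higher (0.52 ± 0.12, adjusted p = 0.0471 by limma), a call lost with the bioB level as a term. The part of B cells in the class II values was not tested.

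Over all 16 arrays H2-Ob ran closest to the B cell list (r = 0.97), ahead of H2-Oa (0.72) and Cd74 (0.69). After group means were removed Cd74 (0.96), H2-Ob (0.95), H2-Aa (0.94), H2-Eb1 (0.89) and H2-Oa (0.84) had high values. The classical chain H2-Ab1 was lower at 0.65, and r was 0.27 for H2-DMa, 0.18 for H2-DMb2 and 0.11 for Ciita. Without M+V replicate 1, H2-DMa was at 0.46 and Ciita at -0.16. H2-DMa instead ran with the genes of all leukocytes (0.82) and of neutrophils (0.85). Its r was also 0.82 with genes of class I presentation and 0.82 with those of class II promoter assembly and its inputs. Macrophage genes had an r of -0.11 with H2-Aa and 0.11 with the mean of the members over 16 arrays. These macrophage values also rested on M+V replicate 1, since without it they were 0.81 and 0.86, beside 0.86 for B cells, 0.87 for dendritic cells and 0.88 for all leukocytes with the mean of the members. The mean of the members also ran with precursor B cell genes (0.805) and erythroid genes (0.721), or 0.795 and 0.765 without M+V replicate 1. Correlation over these arrays therefore did not separate one source of class II RNA from another.

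**Figure D4:**
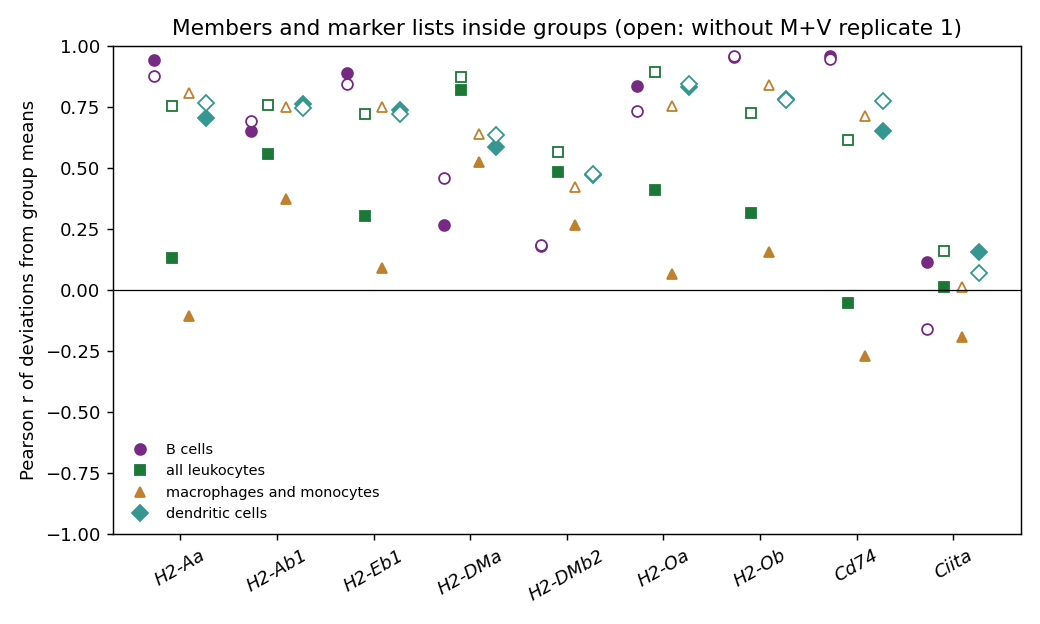
Pearson's r of each member with the mean of 4 marker lists, computed on deviations from group means over 16 arrays (filled) and over 15 arrays without M+V replicate 1 (open). H2-Ob and Cd74 are near 0.95 with B cell genes with and without that array, and the values for macrophage and leukocyte genes of H2-Aa, H2-Eb1, H2-Oa, H2-Ob and Cd74 move up when it is left out.

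For the other cell types the values were as follows. All 13 macrophage and monocyte markers were tested, with a median of -0.13 in M+V against control and 0.25 in control against 4 weeks. None was called in either, 2 and 5 had an unadjusted p under 0.05 by limma. In M+V against 4 weeks Cx3cr1, a chemokine receptor of macrophages, was called lower (-0.41 ± 0.11, adjusted p = 0.0386 by limma), a call lost with the bioB level as a term and without any of 9 single arrays. Their summed signal was 33450 to 57410 in M+V, 40040 to 46140 in control and 36450 to 43540 in 4 weeks cochleae. Of 11 dendritic cell markers 6 were tested, with medians of -0.16 in M+V against control and -0.07 in control against 4 weeks, and Itgax, Xcr1, Batf3 and Ccr7 did not pass the filter. Their summed signal was 1148 to 1691 in M+V, 1362 to 1761 in control and 1355 to 1869 in 4 weeks cochleae. In M+V against 4 weeks Irf4, a factor of dendritic and B lineage cells, was at -1.27 ± 0.36 (adjusted p = 0.0496 by limma), a call lost without any of 14 single arrays. The 5 genes of all leukocytes had medians of 0.08 and 0.23 in these comparisons. The 9 erythroid markers had a median of -1.28 in M+V against control, which was -0.18 without M+V replicate 1. The 5 tested precursor B cell markers had a median of -0.68 in M+V against control, which was 0.16 without M+V replicate 1, and of -0.46 in control against 4 weeks, with all 5 below 0 and 0 called. The 9 neutrophil markers had medians of 0.15 in M+V against control, 0.61 in M+V against 4 weeks and 0.46 in control against 4 weeks, with 0, 4 and 2 called higher, of which the call of Ctsg in the last was lost with the bioB level as a term. The 5 tested brain markers had a median of -0.51 in M+V against control, or -0.23 without M+V replicate 1. The 5 tested plasma cell markers had a median of 0.21 in M+V against control, and the antibody genes Igha and Jchain were called higher in control than in 4 weeks cochleae (4.59 and 2.28 on the log2 scale). The part of these cells in the class II values was not tested.

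Few genes around the members in the pathway passed the test. Of 14 tested genes of class II promoter assembly and its inputs, among them Rfx5, Nfya, Creb1, Irf1 and Spi1, 0 were called by limma in any comparison, and 1, 4 and 1 had an unadjusted p under 0.05 comparing M+V with control, M+V with 4 weeks, and control with 4 weeks. Their median log2 fold changes were -0.03, -0.00 and 0.02. Of these, Spi1, the myeloid and B cell factor PU.1, gave 0.14 ± 0.23 (SE), 0.65 ± 0.23 and 0.52 ± 0.24. The 12 tested genes of endosomal processing, such as the cathepsins, had medians of 0.09, 0.17 and 0.07, and Ctsd, a cathepsin, was called higher in M+V against 4 weeks (0.36 ± 0.09, adjusted p = 0.0298 by limma). Of 7 costimulation genes 3 passed the filter (Cd83, Cd86 and Icosl), and 0 were called in any comparison, with 1, 0 and 0 at an unadjusted p under 0.05.

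Class I presentation, the partner route that serves CD8 T cells, was also followed. The 13 tested class I genes had a median of 0.01 in M+V against control, with 7 above and 6 below 0 and 0 at an unadjusted p under 0.05 by limma. In M+V against 4 weeks their median was 0.21, and H2-D1, a class I heavy chain (0.52 ± 0.10, adjusted p = 0.00928 by limma), and Tap2, a chain of the peptide transporter (0.49 ± 0.13, adjusted p = 0.0431), were called higher. With the bioB level as a term the calls of Ctsd and Tap2 were lost. In control against 4 weeks the median was 0.26, with 0 called and 7 at an unadjusted p under 0.05. Nlrc5, the class I counterpart of Ciita, gave -0.09 ± 0.19 (SE), 0.58 ± 0.19 and 0.67 ± 0.20 in the same 3 comparisons. The difference between class I and class II genes was not tested.

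H2-Ea, the I-E alpha chain and no member here, had the pattern most like that of the members. Ranked over 11449 other genes by r with the mean profile of the 8 tested members over 16 arrays, H2-Ea came first (0.98), and also after group means were removed (0.96). Its log2 signal was between 10.69 and 11.89 with a median of 11.44 in M+V cochleae, against 11.70 to 12.28 with a median of 11.87 in control cochleae and 10.82 to 11.24 with a median of 11.13 in 4 weeks cochleae. Control and 4 weeks arrays did not overlap, and H2-Ea was called higher in control than in 4 weeks cochleae (0.90 ± 0.19, adjusted p = 0.0247 by limma), while M+V against control gave -0.57 ± 0.18 (adjusted p = 0.415). The call was lost with the bioB level as a term, as were those of the classical chains.

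The genes next in likeness over arrays were Bank1, Tfeb, Kansl1, Cd22, Ly6e, Ighv14-2, Ccr6, Cxcl9 and Cyfip2, with r between 0.84 and 0.88. Bank1 and Cd22 are B cell signalling genes, Ighv14-2 is an immunoglobulin heavy chain segment, Ccr6 is a chemokine receptor of lymphocytes, Cxcl9 is a chemokine induced by interferon gamma, and Tfeb is a regulator of lysosomal genes. All 9 were below 0 in M+V against control, from -0.12 for Ly6e to -0.82 for Ighv14-2, and above 0 in control against 4 weeks, from 0.28 for Cyfip2 to 1.12 for Ighv14-2. These 9 were picked for likeness to the members over the same arrays, so their directions follow from the choice and support nothing. After group means were removed the leading genes were H2-Ea, Ly6e, Ctcf, Pou2af1, Blnk, Cd79b, Bcl11a, Spib, Gtpbp2 and Ly6d, with r from 0.91 to 0.96. Of these, Pou2af1, Blnk, Cd79b, Bcl11a, Spib and Ly6d are known from B cells or their precursors. In control against 4 weeks these 6 genes ran from -0.41 for Spib to 0.07 for Bcl11a, with 5 of 6 below 0, while Cd22 (0.54) and Bank1 (0.52) lay above 0.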

How the data were processed

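Signals of 16 arrays (6 M+V, 5 control, 5 at 4 weeks of age) were used as deposited by the authors, who extracted them with GCOS and MAS5 (versions not given in the sources used here) and quantile-normalized them, on the log2 scale. Sorted values were identical on all arrays. Signals under 1 (0.869% of values) were set to 1, and 64 control probes were left out. Present calls were not used. Testing was limited to the 21391 probes (11457 genes) that lay at or above the 50th percentile on all arrays of 1 or more groups. limma 3.58.1 in R 4.3.3 (lmFit, contrasts.fit, eBayes) fitted 1 mean per group over 16 arrays, and two-sided p-values were adjusted by Benjamini-Hochberg over those probes. It was tested on simulated data. A gene stands by its brightest tested probe.

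The members, the companion and marker lists, the alternatives and the rule for named genes (up to 4 per list by the moderated statistic, and the 10 most like the members) were chosen with earlier results of these data known. Members therefore get no test of their own. Affymetrix probes ending in _x_at or _s_at can hybridise to related transcripts. Array annotation gave 1 symbol for 34958 probes.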

Additional observations from a re-analysis of the deposited data

Results flagged for a closer look

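Among 27 groups of member values, 2 held an array whose gap to its nearest neighbour was large for the range of its group, where about 1 in 20, or 1.35, is expected by chance. H2-Aa in control replicate 4 was at 12.84, above the next control array at 12.47. Ciita in 4 weeks replicate 3 was at 6.79, above the next 4 weeks array at 6.42, on a probe that did not pass the filter. Without control replicate 4 the log2 fold change of H2-Aa was 0.82 for control against 4 weeks and it was no longer called.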

How the results depend on the processing

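The median of the members kept its direction under all alternatives run, and moved by more than the spread of a group in 1 of 82 values (control against 4 weeks with the bioB level as a term, 0.39). Many of these values could not move, because a probe filter leaves a difference of group means as it is. The same holds for fitting only the compared groups and for leaving out an array of the third group. The median was 0.02 for M+V against 4 weeks on high level arrays and -0.36 for M+V against control with array weights. Of 738 values of single members, to which the same limit applies, 22 moved: 11 on arrays of the high bioB level, 6 with the bioB level as a term and 5 with all probes of a gene. Leaving out each replicate in turn gave medians of -0.64 to -0.42, 0.22 to 0.37 and 0.64 to 0.78 comparing M+V with control, M+V with 4 weeks, and control with 4 weeks. In control against 4 weeks, H2-Aa lost its call with no filter and without control replicate 4 or 5 or 4 weeks replicate 1, 2 or 5, while H2-Ab1 and H2-Eb1 kept theirs in all limma fits except with the bioB level as a term and on high level arrays. With array weights or only the compared groups 6 members were called there, and array weights called 4 (H2-Aa, H2-Ab1, H2-Eb1 and Cd74) in M+V against 4 weeks.

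Counts of called probes over the whole array depended on the setting. After adjustment, M+V against control had 0 calls, and 14 on high level arrays, where control is 1 array whose spread is assumed to be that of the other groups, as it is in control against 4 weeks there. M+V against 4 weeks had 1129, and 317 with no filter, 719 with a 25th percentile filter, 581 with only the compared groups, 2485 with array weights, 710 with the replicate block and 257 by the methods' t-test (591 to 1760 leaving out single arrays). Control against 4 weeks had 295, and 95, 183, 651, 1012, 166 and 189 in that order, 170 with the bioB level as a term and 22 on high level arrays (139 to 550 leaving out single arrays, the highest without M+V replicate 1). The labels do not say whether replicate numbers pair the samples. Over 15 pairs with the same number the median correlation of deviations was 0.01, with 6 over 0.1. Over 70 other pairs it was -0.02, with 18 over 0.1, which does not settle the question. The replicate block left the same 3 members called in control against 4 weeks, with a median of -0.57 in M+V against control. By the study's cutoffs, M+V against control had 329, and 1593 with no filter, 818 and 91 with 25th and 75th percentile filters, 2237 and 152 on high and low level arrays and 194 by the methods' t-test (221 to 539). M+V against 4 weeks had 938, and 2719, 1798 and 398 with those filters, 1968 with the bioB term and 2677 on high level arrays (832 to 1266). Control against 4 weeks had 520, and 1918, 1124, 215, 1055 and 988 (466 to 591). Of 17 calls in the companion and marker lists, 6 passed under all alternatives, 6 were lost with the bioB term, 5 with the replicate block, and none changed direction. Those lost with the bioB term were Bank1, Ctsd, Ctsg, Cx3cr1, H2-Ea and Tap2, and they were also lost without any of 11, 6, 12, 9, 6 and 13 single arrays in that order. H2-D1 was lost only on high level arrays. The causes were not tested.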
